A study of Mus musculus with 12 samples.

Results

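The insulin receptor, its substrates and the AKT and FOXO proteins form the pathway through which the liver reads insulin after a meal. When insulin binds, the receptor phosphorylates the substrates IRS1 and IRS2, these recruit phosphoinositide 3-kinase (PI3K), and PI3K activates the kinase AKT. AKT phosphorylates the FOXO transcription factors and keeps them out of the nucleus, which lowers the transcription of genes for glucose production, while other arms of the pathway raise genes for fat synthesis. Most of this signalling runs through phosphorylation, which RNA counts do not measure. The genes described here are Insr, Irs1, Irs2, Pik3r1, Akt1, Akt2, Foxo1 and Foxo3. They were chosen by symbol, with earlier results of these data known, and all 8 were found among the 54532 genes of the deposited count table.

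Livers came from chow-fed mice of WT genotype, sampled on day 9 after adenovirus. The study asked how ANGPTL8, a secreted protein that regulates lipoprotein lipase, acts on lipid metabolism. The ANG8 group received a virus for ANGPTL8 overexpression and its control, Ad_GFP, a control virus. The shANG8 group received a virus for ANGPTL8 knockdown and its control, shCtrl, a control hairpin virus. Each group held 3 libraries, 12 in all. All 4 groups therefore carried an adenovirus, and no uninfected liver was analysed here. The labels used here give neither the promoter nor the species of the transgene, and they do not say that the 3 libraries of a group came from separate mice. The p-values therefore measure only the spread between these samples, which may be technical.

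Libraries held 12537083 to 15144312 counts. Genes of the mitochondrial genome took 39.0%, 43.8% and 22.5% of the counts in ANG8, 19.8% to 34.9% in Ad_GFP, 19.3% to 22.9% in shANG8 and 22.9% to 24.2% in shCtrl. Levels are given as CPM, the count scaled to library size with TMM factors, and fold changes are log2 values from edgeR with a standard error (SE). A gene was called when its p-value, adjusted over the 14686 tested genes by the Benjamini-Hochberg method, was under 0.05. The summed level of 10 hepatocyte markers was 22930, 24430 and 49240 CPM in ANG8, against 42080 to 62460 CPM in Ad_GFP, and none of the 10 was at 0. It was 55110 to 80500 CPM in shANG8 and 61060 to 79900 CPM in shCtrl. The targeted gene Angptl8 stood at 165, 314 and 172 CPM in ANG8, against 96.8, 80.4 and 90.0 CPM in Ad_GFP. It stood at 144, 143 and 79.2 CPM in shANG8, against 340, 391 and 167 CPM in shCtrl. The shCtrl libraries thus did not share the low Angptl8 level of the Ad_GFP libraries. Their mean was 299 CPM, above the 217 CPM of ANG8, with overlapping ranges. The mean of shANG8, 122 CPM, lay above the 89.1 CPM of Ad_GFP, again with overlapping ranges. ANG8 and shANG8 were therefore not the highest and lowest groups for Angptl8.

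Of the 8 genes, 1 was called under the overexpression virus and none under the knockdown virus. Irs2 fell, and Insr and Foxo3 stood lower in every ANG8 library than in any Ad_GFP library without passing the adjusted threshold. Across all tested genes, 13.5% were called in ANG8 minus Ad_GFP and 6.39% were called as lower, so 1 of 8 is close to the share of genes at large. The median log2 fold change of the 8 genes was -0.14, beside 0.00 over all tested genes. At an unadjusted p under 0.05 stood 3 of the 8, beside 27.7% of all tested genes. The groups did not overlap and ANG8 was lower for 3 of the 8, beside 16.2% of all tested genes.

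Levels of different genes were compared per kilobase of the gene length listed in the deposited table. In Ad_GFP the mean level was 11.4 CPM per kilobase for Akt1, 10.8 for Akt2, 9.60 for Foxo3, 8.07 for Pik3r1 and 7.999 for Insr. The ranges of neighbouring genes overlapped among these 5. Foxo1 followed at 3.05 ± 0.351 CPM per kilobase (SD, n = 3), then Irs2 at 1.30 ± 0.719 and Irs1 at 0.0994 ± 0.0518. No library range overlapped between Insr, Foxo1, Irs2 and Irs1 in Ad_GFP. In ANG8 the order of the lowest 4 was the same, with Insr at 5.65 ± 0.687 CPM per kilobase, Foxo1 at 2.76 ± 0.415, Irs2 at 0.386 ± 0.126 and Irs1 at 0.157 ± 0.0825. In shANG8 and in shCtrl the ranges of Foxo1 and Irs2 overlapped. By its mean, Irs1 was the lowest of the 8 in every group, but in ANG8 its range of 0.108 to 0.252 CPM per kilobase overlapped that of Irs2, 0.241 to 0.467.

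**Figure D1:**
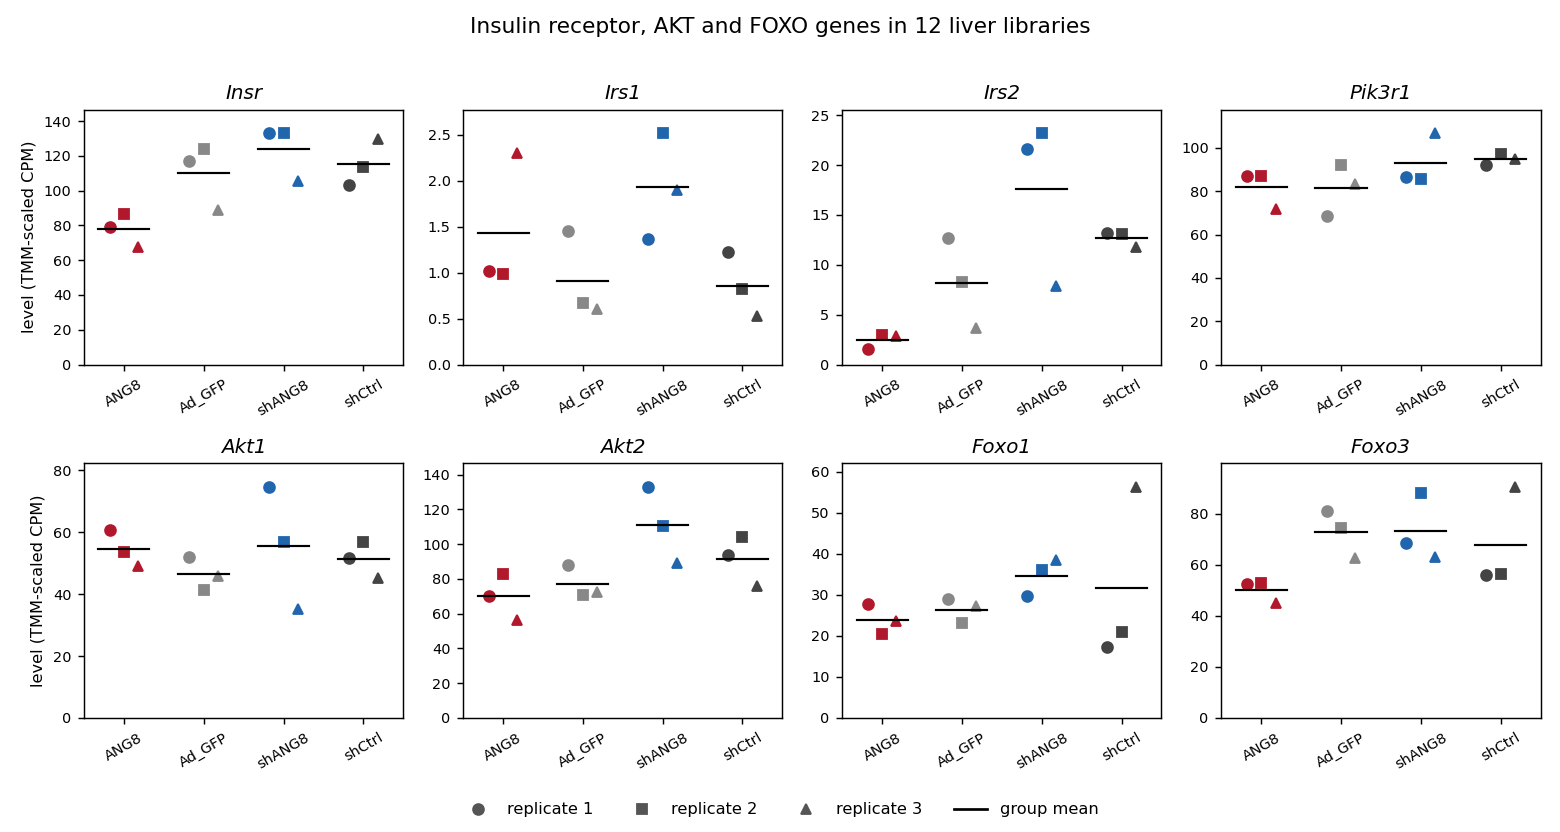
Level of each of the 8 genes in TMM-scaled CPM on linear axes that start at 0, with 1 point per liver library, its replicate number as the marker shape, and a bar at the group mean. The 3 ANG8 libraries lie below the 3 Ad_GFP libraries for Irs2, Insr and Foxo3, and shCtrl replicate 3 stands apart for Foxo1 at 56.4 CPM.

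Insr encodes the insulin receptor, a receptor tyrosine kinase (ENSMUSG00000005534, GRCm38 chromosome 8, 3122061 to 3279617, minus strand, protein-coding). Its level was 78.8, 86.5 and 67.7 CPM in ANG8, against 117, 124 and 88.7 CPM in Ad_GFP. Every ANG8 library lay below every Ad_GFP library, the nearest pair being ANG8 replicate 2 and Ad_GFP replicate 3. The log2 fold change was -0.50 (SE 0.18, 95% confidence interval -0.87 to -0.13), and the edgeR adjusted p was 0.0691. It passed in 4 of 14 alternatives, namely without Ad_GFP replicate 3 (adjusted p = 0.0387), with DESeq2 (0.0385), with the mitochondrial share as covariate (0.0291) and with the replicate number as a block (0.0371). Over all alternatives the adjusted p reached up to 0.225. In the knockdown arm the level was 133, 133 and 106 CPM in shANG8, against 103, 113 and 130 CPM in shCtrl. These ranges overlapped, and the log2 fold change was 0.10 (SE 0.18, interval -0.27 to 0.47).

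Irs2 encodes the insulin receptor substrate that carries much of the insulin signal in mouse liver and whose transcription is held down by insulin (ENSMUSG00000038894, GRCm38 chromosome 8, 10984681 to 11008458, minus strand, protein-coding). Its level was 1.52, 2.95 and 2.85 CPM in ANG8, from 21, 36 and 47 counts. In Ad_GFP it was 12.7, 8.29 and 3.63 CPM, from 201, 112 and 54 counts. The ANG8 libraries were all lower, although Ad_GFP replicate 3 came close to them. Irs2 fell by 1.75 on the log2 scale (SE 0.47, interval -2.76 to -0.74, edgeR adjusted p = 0.0259), which is 3.36-fold lower in ANG8. ANG8 replicate 3, with a hepatocyte marker sum inside the Ad_GFP range, also had a low Irs2 level.

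The Irs2 call depended on single libraries of both groups. Leaving out Ad_GFP replicate 1 ended it (log2 fold change -1.28, adjusted p = 0.108), as did leaving out Ad_GFP replicate 2 (0.0782), ANG8 replicate 1 (0.108), ANG8 replicate 2 (0.0625) or ANG8 replicate 3 (0.061). It stood without Ad_GFP replicate 3 (0.00486). Neither limma voom (0.141) nor a fit with the mitochondrial share as covariate (0.081) called it. In the remaining 7 of 14 alternatives it passed, and the log2 fold change stayed negative in all 14, between -2.11 and -1.28. In the knockdown arm Irs2 stood at 21.6, 23.2 and 7.87 CPM in shANG8, against 13.2, 13.1 and 11.8 CPM in shCtrl. The shANG8 libraries lay on both sides of the shCtrl libraries, with a log2 fold change of 0.47 (SE 0.42) and an edgeR adjusted p of 0.848.

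Irs1 encodes the paralogous substrate, best known from muscle and fat (ENSMUSG00000055980, GRCm38 chromosome 1, 82233101 to 82291416, minus strand, protein-coding). It had 14, 12 and 38 counts in the ANG8 libraries, against 23, 9 and 9 in Ad_GFP, so its levels of 0.984 to 2.31 CPM in ANG8 and 0.605 to 1.46 CPM in Ad_GFP rest on few reads. The log2 fold change of 0.66 had an SE of 0.57, and the ranges overlapped. In the knockdown arm it had 1.36, 2.52 and 1.90 CPM in shANG8, against 1.22, 0.82 and 0.532 CPM in shCtrl. Each shANG8 library lay above each shCtrl library, as for 6.16% of all tested genes, and the log2 fold change was 1.15 (SE 0.57, interval -0.05 to 2.36, edgeR adjusted p = 0.651). A predicted gene on the opposite strand, Gm9747, shares 2822 bases of exon with Irs1 and is listed with 0 counts in all libraries. The library kit and the counting are not stated to use strand. If strand was ignored, reads in these bases could not be assigned to either gene, and the Irs1 level may be too low in every group. The Irs2 exons share 162 bases with 9530052E02Rik, which held 20 counts over all libraries.

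The bases before the start sites of Irs1, Irs2 and the third paralog Irs4 are shown because Irs2 was the called gene and the 3 genes share a short arrangement there. The sequences are from RefSeq on GRCm38.p6, minus strand, written 5′ to 3′ and ending at the base before the start site. Capitals mark the E-box CACGTG, a site known to bind SREBP1 and other factors, and TGTTTTG, the reverse complement of the insulin response sequence CAAAACA, a site known to bind FOXO factors. In Irs1 they overlap.
Irs2, chr8:11008930-11009179: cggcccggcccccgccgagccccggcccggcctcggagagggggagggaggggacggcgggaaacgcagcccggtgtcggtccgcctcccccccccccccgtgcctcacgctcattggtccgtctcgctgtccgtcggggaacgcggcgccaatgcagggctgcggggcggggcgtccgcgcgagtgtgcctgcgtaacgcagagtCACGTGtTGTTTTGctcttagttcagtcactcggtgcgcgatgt
Irs1, chr1:82291440-82291689: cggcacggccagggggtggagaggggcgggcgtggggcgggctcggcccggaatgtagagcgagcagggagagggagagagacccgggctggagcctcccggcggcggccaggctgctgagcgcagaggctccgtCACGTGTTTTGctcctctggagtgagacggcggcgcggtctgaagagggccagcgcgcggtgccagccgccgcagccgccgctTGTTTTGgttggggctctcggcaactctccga
Irs4, chrX:141725218-141725467: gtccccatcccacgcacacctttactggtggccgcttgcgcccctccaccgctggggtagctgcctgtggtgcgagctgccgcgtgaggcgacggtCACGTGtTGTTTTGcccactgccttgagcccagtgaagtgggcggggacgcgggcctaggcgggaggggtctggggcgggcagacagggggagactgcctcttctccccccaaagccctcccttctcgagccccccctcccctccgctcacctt

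The E-box began 44 bases before the start site of Irs2, 115 before that of Irs1 and 154 before that of Irs4. Among 32851 RefSeq promoter windows of 300 bases, 7.15% held the E-box and 6.28% held CAAAACA on either strand. Both together, with CAAAACA or its reverse complement beginning within 7 bases after the start of the E-box, occurred in 3 windows (0.00913%), those of Irs1, Irs2 and Irs4. This arrangement was looked for after the matches in Irs1 and Irs2 had been seen. Irs4 had 0 counts in all 12 libraries, where 3 counts would be 0.198 to 0.239 CPM. The shared letters describe the sequence and are no measure of binding. The motifs stand before Irs1 as well as before Irs2, and their part in the Irs2 level was not tested.

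Windows were found for 7 of the 8 genes, 12 windows in all. The FOXO consensus GTAAACA, present on either strand in 3.65% of all windows, occurred in 1 of them, before Akt1. The sterol regulatory element TCACNCCAC (1.24% of all windows) and the cAMP response element TGACGTCA (1.79%) occurred in none of the 12. No motif searched for was found in 9 windows, those of Akt2, Foxo1, Foxo3, Pik3r1 and a second one of Akt1.

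Pik3r1 encodes p85-alpha, the regulatory subunit that binds PI3K to the phosphorylated substrates (ENSMUSG00000041417, GRCm38 chromosome 13, 101680563 to 101768217, minus strand, protein-coding). Its level was 87.0, 87.3 and 71.6 CPM in ANG8, against 68.5, 92.2 and 83.3 CPM in Ad_GFP, and 86.6, 85.5 and 107 CPM in shANG8, against 92.0, 97.4 and 95.1 CPM in shCtrl. The ranges overlapped in both arms. The log2 fold change was 0.01 (SE 0.16, interval -0.33 to 0.36) in the overexpression arm and -0.03 (SE 0.16, interval -0.37 to 0.32) in the knockdown arm. These intervals are the narrowest of the 8 genes in each arm, and the sign changed with the alternative in both.

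Akt1 and Akt2 encode the AKT kinases, of which AKT2 is the main isoform of insulin signalling in mouse liver. Akt1 (ENSMUSG00000001729, chromosome 12, 112653821 to 112674884, minus strand) stood at 60.6, 53.5 and 49.3 CPM in ANG8, against 52.1, 41.5 and 46.0 CPM in Ad_GFP. Akt2 (ENSMUSG00000004056, chromosome 7, 27591552 to 27640826, plus strand) stood at 70.3, 82.9 and 56.7 CPM in ANG8, against 87.8, 70.9 and 72.7 CPM in Ad_GFP. The ranges overlapped for each kinase, with log2 fold changes of 0.23 (SE 0.21) for Akt1 and -0.14 (SE 0.19) for Akt2. In the knockdown arm Akt1 ranged from 35.3 to 74.8 CPM in shANG8 and from 45.3 to 56.9 CPM in shCtrl. Akt2 stood at 133, 110 and 89.0 CPM in shANG8, against 93.9, 104 and 76.2 CPM in shCtrl, with a log2 fold change of 0.28 (SE 0.19, interval -0.13 to 0.68). A pseudogene, Akt2-ps, matches 1449 bases of the Akt2 transcript at 98.6% identity and held 157 counts over all libraries, so reads of these genes may be split and the Akt2 values are uncertain to that extent.

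Foxo1 and Foxo3 encode forkhead transcription factors that AKT inhibits, and Foxo1 is the one best known for driving glucose production in mouse liver. Foxo3 (ENSMUSG00000048756, chromosome 10, 42181841 to 42276755, minus strand) stood at 52.4, 53.0 and 44.8 CPM in ANG8, against 81.1, 74.3 and 62.7 CPM in Ad_GFP. The groups did not overlap, and the log2 fold change was -0.54 (SE 0.20, interval -0.96 to -0.12, edgeR adjusted p = 0.0855). It passed in 1 of 14 alternatives, the fit of these 2 groups alone (adjusted p = 0.0487), and the highest adjusted p was 0.237. Foxo1 (ENSMUSG00000044167, chromosome 3, 52268336 to 52353221, plus strand) stood at 27.7, 20.5 and 23.6 CPM in ANG8, against 28.9, 23.0 and 27.3 CPM in Ad_GFP. Its ranges overlapped, and the log2 fold change was -0.14 (SE 0.34, interval -0.88 to 0.60). Foxo1 shares 589 exon bases with the antisense gene Gm20402, which is listed with 0 counts in all libraries. As for Irs1, the Foxo1 level, and with it the ratio to Foxo3, may be too low if strand was ignored.

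In the knockdown arm 1 control library stood apart from the other shCtrl libraries for both FOXO genes. Foxo1 stood at 29.6, 36.0 and 38.5 CPM in shANG8, against 17.4, 20.9 and 56.4 CPM in shCtrl. Foxo3 stood at 68.7, 88.2 and 63.1 CPM in shANG8, against 55.9, 56.2 and 90.6 CPM in shCtrl. In both genes shCtrl replicate 3 was higher than every shANG8 library, and the other two shCtrl libraries were lower than every shANG8 library. The log2 fold change of Foxo1 was 0.14 (SE 0.34), and without shCtrl replicate 3 it was 0.85 with an edgeR adjusted p of 0.173. That of Foxo3 was 0.12 (SE 0.20), and without this library it was 0.38 with an edgeR adjusted p of 0.761.

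**Figure D2:**
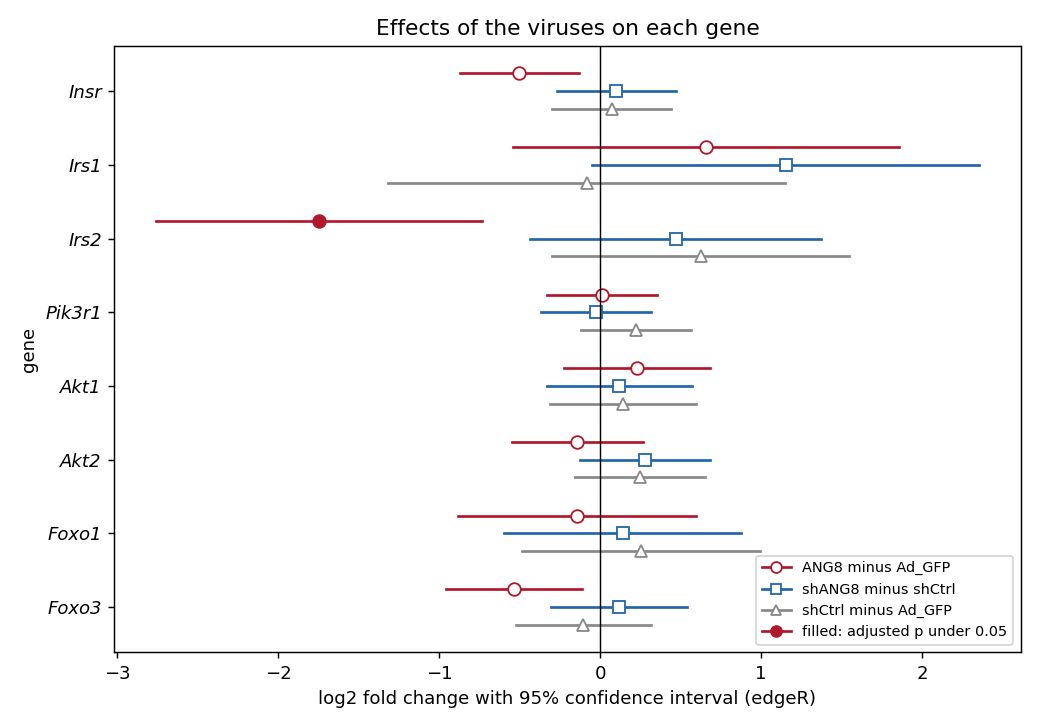
Log2 fold change of each gene with its 95% confidence interval from edgeR, for ANG8 minus Ad_GFP (circles), shANG8 minus shCtrl (squares) and shCtrl minus Ad_GFP (triangles); a filled marker passed the adjusted threshold. Irs2 in ANG8 minus Ad_GFP, at -1.75, is the one filled marker, and all 8 intervals of shANG8 minus shCtrl include 0.

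The knockdown comparison gave no called gene among the 8 by edgeR, by DESeq2 or by limma voom, and none had an unadjusted p under 0.05. Of all tested genes 0.191% were called there. The targeted gene Angptl8 was not among them (log2 fold change -1.29, SE 0.33, edgeR adjusted p = 0.235). Its change passed in 4 of 14 alternatives and was negative in all 14. Since the targeted gene itself was not called, the lack of calls cannot show that the 8 genes did not respond to knockdown. The median log2 fold change of the 8 was 0.13, beside 0.01 over all tested genes. The difference between the overexpression and the knockdown effect was tested directly as an interaction, where 6.62% of all tested genes were called. None of the 8 passed by edgeR or limma voom, and 1 passed by DESeq2. At an unadjusted p under 0.05 stood Irs2, Insr and Foxo3, 3 of the 8, beside 21.9% of all tested genes. The difference was -2.22 for Irs2 (SE 0.63, edgeR adjusted p = 0.0521), -0.60 for Insr (SE 0.25, adjusted p = 0.161) and -0.66 for Foxo3 (SE 0.28, adjusted p = 0.181). The Irs2 difference passed without Ad_GFP replicate 3 (adjusted p = 0.0119) and without shANG8 replicate 3 (0.00653), and reached 0.182 with voom. Without shCtrl replicate 3 the differences of Foxo1 (-0.99, adjusted p = 0.0385) and Foxo3 (-0.92, adjusted p = 0.0453) passed.

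The control viruses were compared as shCtrl minus Ad_GFP. EdgeR called 0 of the 14686 tested genes (0%), with 1286 at an unadjusted p under 0.05, 38 called by DESeq2 and 0 by limma voom. None of the 8 genes had an unadjusted p under 0.05, and in all 8 the libraries of the groups overlapped. The largest of the 8 log2 fold changes was that of Irs2, 0.62 (SE 0.43), with means of 12.7 CPM in shCtrl and 8.21 CPM in Ad_GFP. Angptl8, which is not one of the 8, had a log2 fold change of 1.75 (SE 0.33, edgeR adjusted p = 0.338). Each shCtrl library lay above each Ad_GFP library for Angptl8, as for 7.66% of all tested genes. It passed in 4 of 14 alternatives.

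Ratios between paralogs were taken within each library, where the scaling of libraries cancels. The log2 ratio of Irs2 to Irs1 per kilobase was 1.12, 2.12 and 0.84 in ANG8, against 3.66, 4.17 and 3.12 in Ad_GFP. The groups did not overlap, and the mean ratio corresponded to 2.56-fold more Irs2 than Irs1 in ANG8, against 12.5-fold in Ad_GFP. The difference of -2.29 had an exact two-sided permutation p of 0.1, the smallest that 3 against 3 libraries allow. The fold itself rests on the listed lengths and on the Irs1 counts, which the bases shared with Gm9747 may lower. In shANG8 the log2 ratio was 4.52, 3.74 and 2.59, against 3.96, 4.53 and 5.001 in shCtrl, with overlapping groups.

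The log2 ratio of Akt2 to Akt1 was -0.59, -0.17 and -0.60 in ANG8, against -0.05, -0.03 and -0.14 in Ad_GFP. Each ANG8 library lay below each Ad_GFP library, the nearest by a small margin, and the difference of -0.38 had an exact two-sided permutation p of 0.1. In shANG8 it was 0.03, 0.16 and 0.54, against 0.07, 0.07 and -0.05 in shCtrl, and these groups overlapped. The log2 ratio of Foxo1 to Foxo3 was -1.12, -1.56 and -1.12 in ANG8, against -1.68, -1.88 and -1.39 in Ad_GFP. These overlapped, with a difference of 0.39 and an exact two-sided permutation p of 0.2. Of the 9 differences in ratio computed, none can reach 0.05 at this group size.

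**Figure D3:**
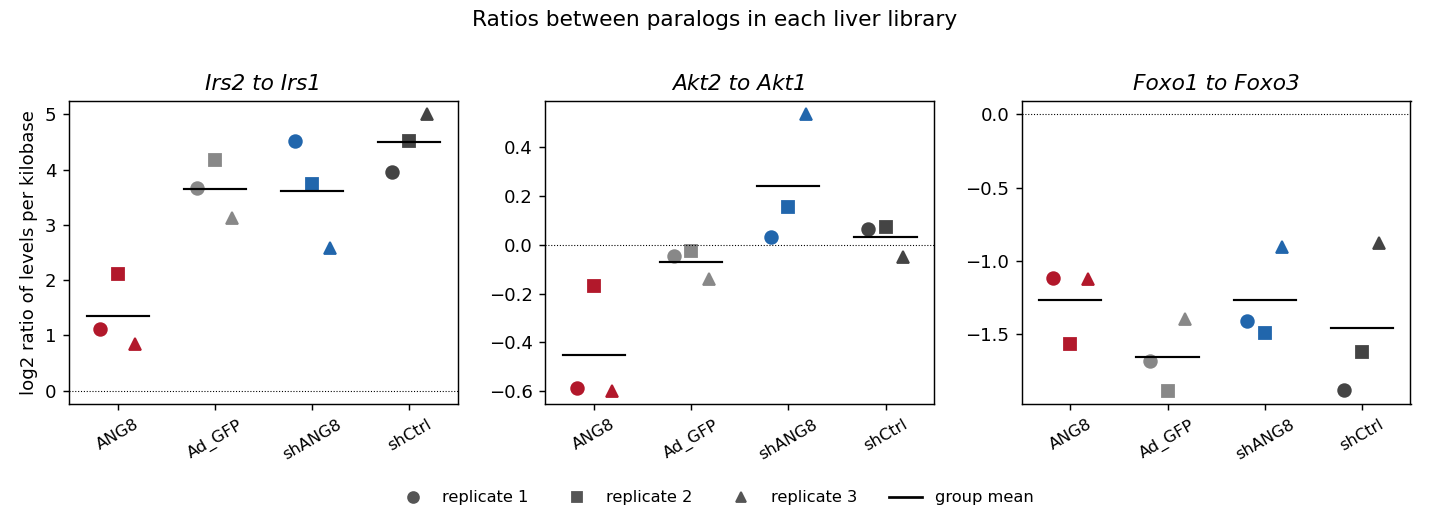
Log2 ratio of levels per kilobase between paralogs, 1 point per liver library with its replicate number as the marker shape and a bar at the group mean; each panel has its own linear axis and a dotted line at equal levels. The ANG8 libraries have the lowest Irs2 to Irs1 ratios, 0.84 to 2.12.

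The genes whose pattern over the 12 libraries was most like that of each of the 8 were found by the root mean square difference of log2 CPM centred on each gene's mean. Irs2 was closest to Agxt, an enzyme of glyoxylate breakdown (0.37), and to the cytochrome Cyp2c50 (0.39), where the median over 8006 candidates was 1.16. Insr was closest to Tbccd1 (0.10) and to ENSMUSG00000039100 (0.12), listed in the table as the date 6-Mar and in GENCODE as March6, with a median of 0.38. Foxo3 was closest to Gramd1c (0.14) and Ralgapa2 (0.14), and Foxo1 to Lpin2, a phosphatidate phosphatase (0.25), and Cyp3a13 (0.26). Akt2 was closest to Tollip (0.10) and Otulin (0.10), Akt1 to Gpn2 (0.13) and Cdk19 (0.14), and Pik3r1 to Med14 (0.11) and Mrpl49 (0.12). The closest to Irs1, Acnat1 and Slc16a11, differed from it by 0.41 each, with a median of 0.69.

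Among genes that act next to the receptor, 5 of 21 rose and 1 fell in ANG8 minus Ad_GFP, and 15 did not pass. In that comparison 7.08% of all tested genes were called as higher and 6.39% as lower. This and the other pathway lists, 6 in all, were chosen with earlier results of these data known. The shares over all tested genes are therefore no independent comparison for the list counts. The list median was -0.21 in log2 fold change, beside 0.00 over all tested genes. Ceacam1, which promotes the uptake and clearance of insulin by the liver, fell to 27.1, 28.1 and 44.0 CPM in ANG8, against 84.4, 69.0 and 64.7 CPM in Ad_GFP (log2 fold change -1.13, SE 0.21, edgeR adjusted p = 0.00236). In all 14 alternatives it passed. The docking proteins Gab2 (1.93, SE 0.37) and Dok1 (1.36, SE 0.26) rose, as did Ptpn1, the phosphatase PTP1B that removes phosphate from the receptor (0.64, SE 0.15). Socs1, a suppressor of cytokine signalling that also acts on IRS proteins, rose to 11.3, 18.3 and 11.9 CPM in ANG8, against 8.60, 4.22 and 4.98 CPM in Ad_GFP (1.21, SE 0.33). Grb2, an adaptor to the RAS pathway, rose by 0.49 on the log2 scale (SE 0.14). Socs1 no longer passed when Ad_GFP replicate 2 (adjusted p = 0.0957), Ad_GFP replicate 3 (0.0815) or ANG8 replicate 2 (0.103) was left out. Grb2 did not pass without any 1 of the 6 libraries (0.0539 to 0.109), without the filter on low counts (0.0995) or in the fit of these groups alone (0.0504).

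Of 13 other PI3K subunits and adaptors, 2 rose, 0 fell and 11 did not pass, with a list median of 0.09. Over all tested genes 7.08% were called as higher and 6.39% as lower. Pik3cd, the catalytic subunit typical of white blood cells, stood at 42.2, 51.0 and 36.5 CPM in ANG8, against 19.4, 20.9 and 25.8 CPM in Ad_GFP (log2 fold change 0.97, SE 0.20, edgeR adjusted p = 0.00393). Pik3ap1, an adaptor known from B cells and myeloid cells, rose by 1.08 on the log2 scale (SE 0.29), a call lost without Ad_GFP replicate 2 (adjusted p = 0.0925) or 3 (0.0517) and without ANG8 replicate 1 (0.0589), 2 (0.0534) or 3 (0.0523). The widely expressed catalytic subunit Pik3ca had a log2 fold change of 0.21 and did not pass. Macrophage markers moved the same way: 8 of 9 rose, and their summed level was 630 to 727 CPM in ANG8, against 267 to 345 CPM in Ad_GFP. Of 8 T and NK cell markers 5 rose and 1 fell, with a sum of 109 to 125 CPM in ANG8, against 42.7 to 58.5 CPM in Ad_GFP. None of these markers was at 0 in all libraries. Their part in the values of Gab2, Dok1, Socs1, Pik3cd and Pik3ap1 was not tested, and in whole liver more cells of a type and more RNA per cell cannot be told apart.

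Of 18 activators and inhibitors of AKT, 1 rose and 17 did not pass, with a list median of -0.02. Over all tested genes 7.08% were called as higher and 6.39% as lower. The gene called was Inpp5d, the phosphatase SHIP1 of blood cells (0.74, SE 0.24, edgeR adjusted p = 0.0498). It was lost without any 1 of the 6 libraries (adjusted p up to 0.209), with the RLE scaling (0.0515) and in a fit with the mitochondrial share as covariate (0.137). Pdpk1, which encodes an AKT-activating kinase, had a log2 fold change of -0.30 and did not pass. Of 19 tested AKT substrates and parts of mTORC1, the growth kinase complex downstream of AKT, 1 rose and 1 fell, with a median of 0.02. Eif4ebp2, a repressor of translation that mTORC1 inactivates, fell by 0.80 on the log2 scale (SE 0.15, adjusted p = 0.00263). Tbc1d1, a regulator of glucose transporter traffic, rose by 0.91 (SE 0.25), and did not pass without Ad_GFP replicate 1 (adjusted p = 0.069) or 2 (0.0952) and without ANG8 replicate 1 (0.078) or 3 (0.0685).

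Of 21 tested FOXO factors and genes known as FOXO targets, 0 rose and 5 fell in ANG8 minus Ad_GFP. The other 16 did not pass, and the list median was -0.19. Over all tested genes 7.08% were called as higher and 6.39% as lower. G6pc, the glucose-6-phosphatase of glucose release, fell to 27.2, 70.0 and 45.6 CPM in ANG8, against 126, 393 and 190 CPM in Ad_GFP (log2 fold change -2.31, SE 0.57, edgeR adjusted p = 0.0254). Pck1, the first committed enzyme of glucose synthesis, fell to 598, 1050.0 and 885 CPM in ANG8, against 2842, 1811 and 1599 CPM in Ad_GFP (-1.30, SE 0.34, adjusted p = 0.0179). Ppargc1a, a coactivator of both genes, fell by 1.48 on the log2 scale (SE 0.38), Klf15, a regulator of amino acid use in glucose synthesis, by 0.93 (SE 0.20) and Apoc3, an apolipoprotein, by 0.78 (SE 0.22). Igfbp1, another known FOXO target, had 2.54, 5.74 and 4.55 CPM in ANG8, against 2.03, 5.55 and 7.94 CPM in Ad_GFP, with overlapping groups. Klf15 passed in all 14 alternatives. G6pc did not pass when Ad_GFP replicate 2 (adjusted p = 0.078), ANG8 replicate 1 (0.0826) or ANG8 replicate 3 (0.092) was left out, nor without the filter on low counts (0.0567). Pck1 did not pass without Ad_GFP replicate 1 (0.0852) or ANG8 replicate 1 (0.0868), nor with the mitochondrial covariate (0.0881). The same held for Ppargc1a without Ad_GFP replicate 1 (0.0613) or 2 (0.0859) or ANG8 replicate 1 (0.0838) or 2 (0.0605). Apoc3 did not pass without Ad_GFP replicate 1 (0.0558), 2 (0.0997) or 3 (0.0569) or ANG8 replicate 1 (0.102) or 2 (0.121).

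Of 16 genes listed as induced by insulin in liver, 2 rose and 8 fell, and 6 did not pass, with a list median of -0.73. The list includes the targeted gene Angptl8, and whether insulin induces each of the 16 was not checked. Over all tested genes 7.08% were called as higher and 6.39% as lower. Srebf1, which encodes the SREBP1 factors, fell to 244, 260 and 201 CPM in ANG8, against 464, 417 and 474 CPM in Ad_GFP (log2 fold change -0.94, SE 0.19, edgeR adjusted p = 0.00319). Its targets for fat synthesis fell with it, among them Fasn (-1.79), Acly (-1.84), Thrsp (-2.05) and Scd1 (-1.23), and Scd1 did not pass when Ad_GFP replicate 2 was left out (adjusted p = 0.0525). Egr1, an immediate early gene, rose by 1.59 (SE 0.30), and the other gene that rose was the targeted gene Angptl8 (1.28, SE 0.33, adjusted p = 0.0201). Angptl8 did not pass without any 1 of the Ad_GFP libraries (0.0538 to 0.0786), without ANG8 replicate 2 (0.0732) or with the mitochondrial covariate (0.0973). Apart from Egr1 and Angptl8, the called genes of both lists, FOXO targets and insulin-induced genes, were thus lower in ANG8. Of 10 hepatocyte markers, 8 also fell and 2 did not pass, with a median of -1.23, and their part in these values was not tested.

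In the knockdown arm edgeR called none of the members of these 6 lists, 108 tested genes in all. The list medians lay between 0.04 and 0.19. Pck1 stood at 4781, 4759 and 3148 CPM in shANG8, against 1560.0, 2000.0 and 3931 CPM in shCtrl, with overlapping groups and a log2 fold change of 0.76 (SE 0.33, edgeR adjusted p = 0.586). Of the 21 tested genes of the FOXO list, 4 had an unadjusted p under 0.05, beside 7.93% of all tested genes. Pck1, Foxo4 (0.80, SE 0.20) and Igfbp1 (1.415, SE 0.565) were higher, and Gadd45a (-0.95, SE 0.39) was lower. Foxo4 stood at 43.7, 37.0 and 29.5 CPM in shANG8, against 19.8, 24.9 and 18.5 CPM in shCtrl (edgeR adjusted p = 0.192). Its groups did not overlap, as for 6.16% of all tested genes with shANG8 higher. Srebf1 stood at 747, 907 and 602 CPM in shANG8, against 626, 695 and 654 CPM in shCtrl.

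**Figure D4:**
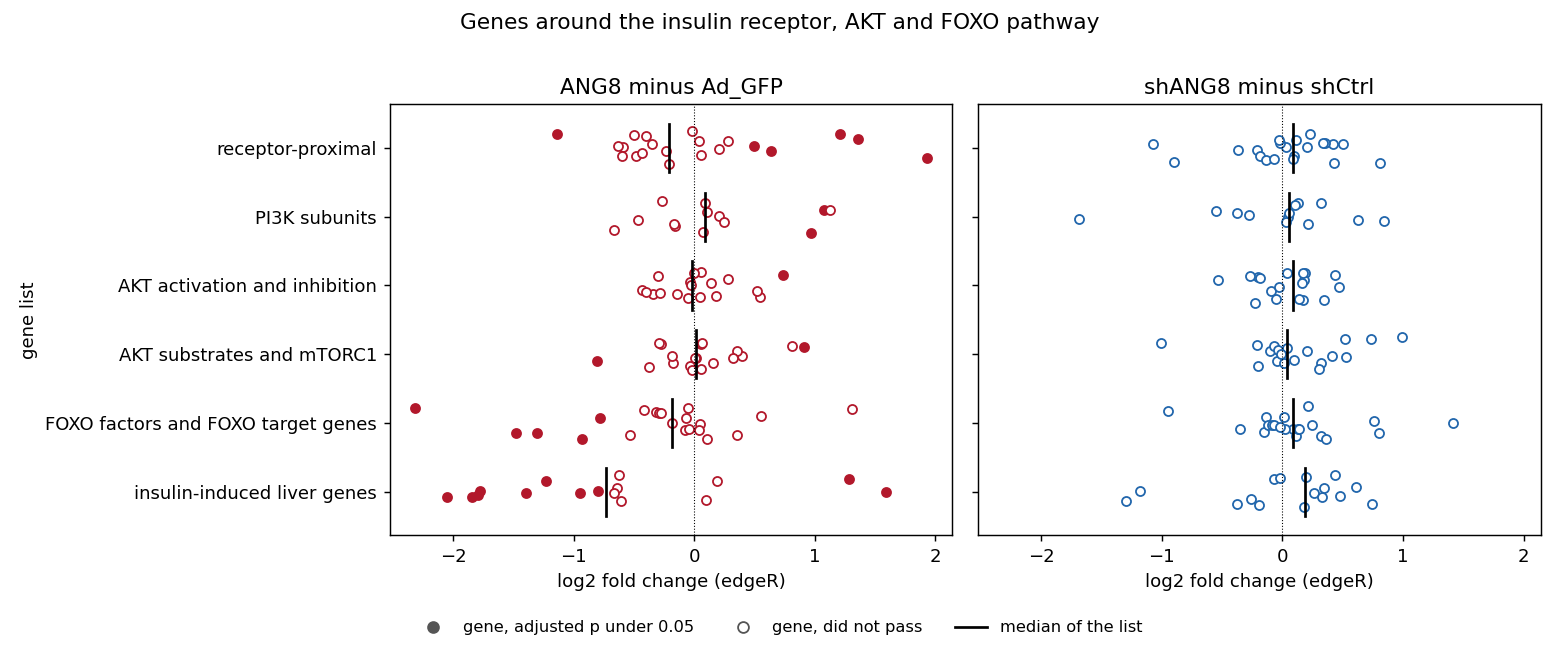
Log2 fold change of each tested gene of 6 lists around the pathway, for ANG8 minus Ad_GFP on the left and shANG8 minus shCtrl on the right; filled points passed the adjusted threshold, black bars mark list medians, and the vertical spread within a list has no meaning. On the left the genes listed as insulin-induced have the lowest median, -0.73, and on the right no point is filled.

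**Figure D5:**
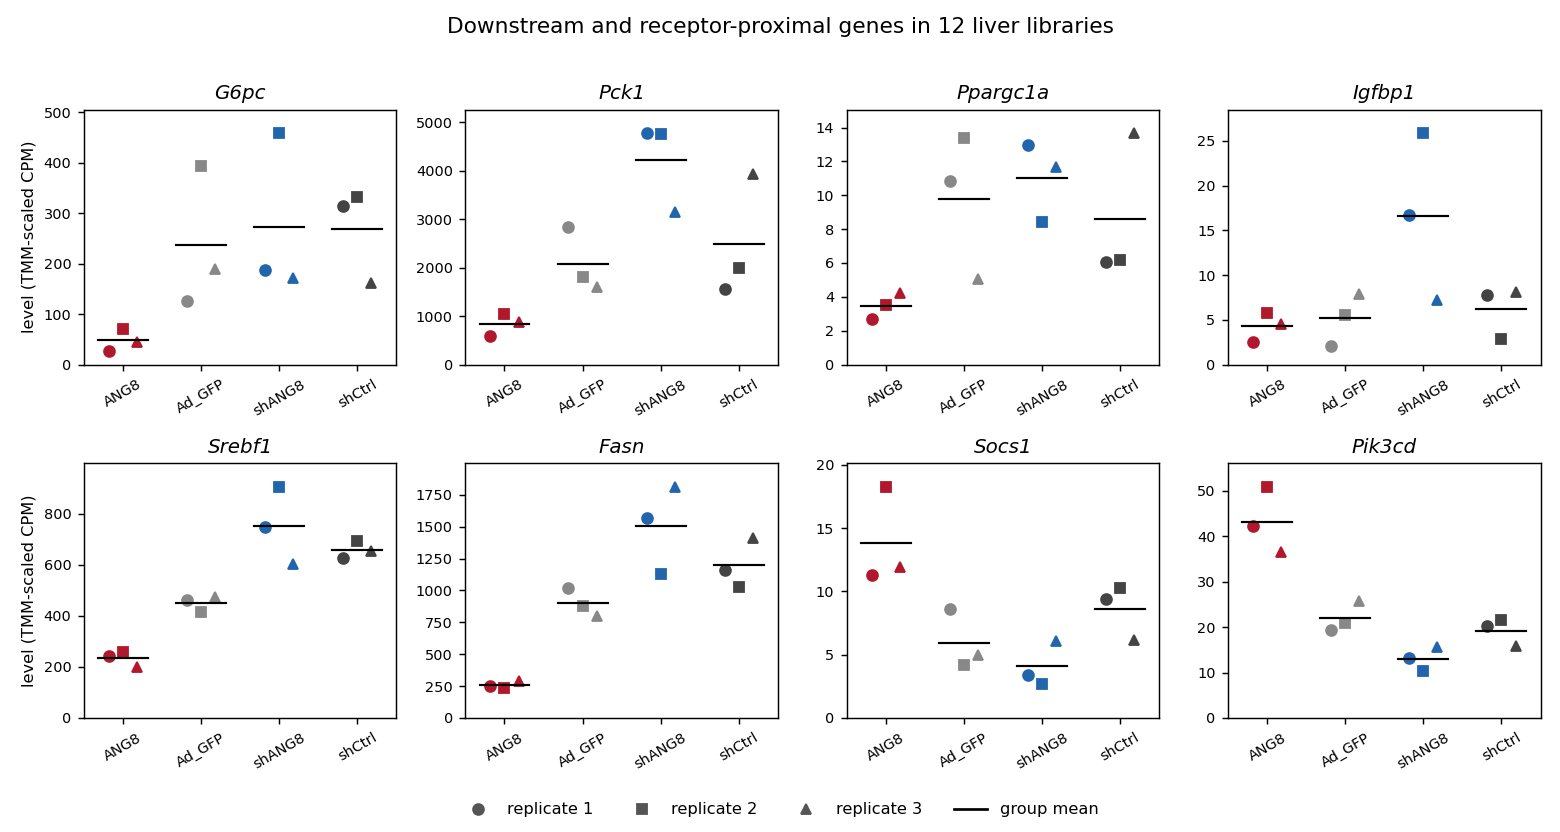
Level in TMM-scaled CPM of 8 genes downstream of or next to the receptor on linear axes that start at 0, with 1 point per liver library and a bar at the group mean. For G6pc, Pck1, Ppargc1a, Srebf1 and Fasn the 3 ANG8 libraries lie below the 3 Ad_GFP libraries, and for Socs1 and Pik3cd they lie above.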

How the data were processed

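The submitters state that total liver RNA was taken up in Trizol and made into NEBNext Ultra libraries, per the labels' protocols. The deposited matrix gives read counts per gene, which are whole numbers that the authors did not normalize, in 12 columns. CASAVA 1.8.2, featureCounts 1.5.0-p3 and mm9 stand in the submitters' processing notes. However, 98.3% of 54409 genes found in GENCODE vM21 have its GRCm38 coordinates, so positions are given as GRCm38. For the aligner and the strand setting, nothing is stated. Levels per kilobase used the deposited gene length.

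Tests across genes used edgeR 4.0.16 (R 4.3.3): filterByExpr kept 14686 genes, holding 99.85% or more of the counts of each library, followed by TMM and a robust quasi-likelihood fit of all 12 libraries with a Benjamini-Hochberg adjustment. Alternatives were DESeq2 1.42.0, limma voom 3.58.1, RLE scaling, no filter, smaller fits, the mitochondrial share as a covariate, mitochondrial genes left out, a replicate block and each library left out. The fit was tested on simulated data, in genes above a level that Irs1 does not reach. It recovered 8.96% of genes changed 1.5-fold in each arm. Of genes changed 2-fold it recovered 58.2% for overexpression and 65.7% for knockdown. At 4-fold these shares were 92.4% and 97.0%. Only 67, 67 and 66 genes were changed at these folds, whereas 1978 genes were called for overexpression and 28 for knockdown. The fitted spread (edgeR coefficient of variation) was 0.362 for Irs2 and 0.292 for Foxo1, against a median of 0.223 over tested genes. Insr, Pik3r1, Akt1, Akt2 and Foxo3 lay below that median, at 0.164 to 0.199. The shares are therefore not recovery rates for any 1 of the 8 genes. Paralog ratios were compared by exact permutation tests.

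The members and lists were chosen with earlier results of these data known. Named genes are the 8 members, Angptl8, called list members (values for up to 6 per list) and the 2 genes most like each member (protein-coding, mean log2 CPM of at least 3). The log2 CPM values for that likeness were computed from the deposited counts with a prior count of 2. Irs4, Igfbp1, Pdk4, Foxo4, Gadd45a, Pdpk1 and Pik3ca lie outside this rule and were named after their values were seen. Near-identical copies were sought by BLAST 2.17.0 (95% identity over 200 bases).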

Additional observations from a re-analysis of the deposited data

Results flagged for a closer look

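None of the 8 genes differed between the overexpression and the knockdown effect by the interaction test of edgeR at an adjusted p under 0.05. Of the surrounding lists, the genes below did, and each value is the log2 effect of ANG8 minus Ad_GFP less that of shANG8 minus shCtrl. Each was recomputed under 19 alternatives, and all kept their sign. Next to the receptor these were Socs1 (2.29), Gab2 (2.30), Dok1 (1.28), Grb7 (-1.09) and Ceacam1 (-1.11). Grb7 and Ceacam1 passed in 12 alternatives each and Dok1 in 6, with adjusted p up to 0.0776 for Grb7 without Ad_GFP replicate 1, 0.0999 for Ceacam1 without ANG8 replicate 1 and 0.116 for Dok1 without ANG8 replicate 1. Among PI3K and AKT regulators they were Pik3cd (1.53) and Inpp5d (1.27), and among AKT substrates Eif4ebp2 (-1.10) and Tbc1d4 (1.82). Inpp5d passed in 11 alternatives (up to 0.0879 without ANG8 replicate 2) and Tbc1d4 in 6 (up to 0.127 without ANG8 replicate 1). Of the FOXO targets, Pck1 (-2.06), Ppargc1a (-1.84) and Klf15 (-1.04) differed. Ppargc1a passed in 5 alternatives and was not called with RLE scaling (0.0511) or voom (0.065) or, at the highest, without Ad_GFP replicate 2 (0.126). Klf15 passed in 11 (up to 0.0993 without shCtrl replicate 2) and Pck1 in 16 (up to 0.0628 with the mitochondrial covariate). Of the insulin-induced genes, Fasn (-2.12), Acly (-2.19), Thrsp (-2.23), Srebf1 (-1.14), Acaca (-1.23) and Scd1 (-1.71) had a lower effect under overexpression, and Egr1 (2.77) and the targeted gene Angptl8 (2.58) a higher one. Acaca passed in 18 alternatives and Scd1 in 15, both with their highest adjusted p without shCtrl replicate 2 (0.0555 for Acaca and 0.0665 for Scd1). The other genes named here passed in all 19.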

How the results depend on the processing

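Of the 8 genes, 1 was called in ANG8 minus Ad_GFP, and 2 were called with DESeq2, with the replicate block or with only these groups in the fit, 0 with limma voom, and 0 to 2 when a library was left out. In the difference of effects 0 were called, but 1 with DESeq2, without the filter on low counts or with the replicate block, and 0 to 2 when a library was left out. The knockdown and the control comparison gave 0 in every alternative run. Over all genes, leaving out a library gave 995 to 1684 calls for ANG8 minus Ad_GFP, 21 to 39 for shANG8 minus shCtrl, 473 to 1227 for the difference and 0 to 10 for shCtrl minus Ad_GFP. DESeq2, no filter and the replicate block gave 102, 132 and 55 calls for shANG8 minus shCtrl (47 with the mitochondrial share as a covariate), 1541, 1510 and 1550 for the difference and 38, 96 and 5 for shCtrl minus Ad_GFP. The replicate numbers were not taken to pair the libraries, since the same-number correlations of deviations were -0.067, 0.12 and 0.15 between ANG8 and Ad_GFP and 0.035, 0.082 and 0.19 between shANG8 and shCtrl, and exceeded 0.1 throughout in 1 of 6 pairs of groups. Still, 15 of 18 same-number correlations were positive (median 0.114), against 14 of 36 others (median -0.06), and 2 of the 12 libraries correlated best with their own number in every other group. The deviations were taken from means of 3 libraries, so positive same-number values push the others down. The others are therefore no independent baseline. With the block ANG8 minus Ad_GFP gave 2600 calls, Insr among them (adjusted p = 0.0371). The cause of these changes was not tested.

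The sign of some uncalled log2 fold changes depended on the setting. With the mitochondrial share as a covariate it reversed for Pik3r1 (-0.11 in ANG8 minus Ad_GFP, 0.006 in shANG8 minus shCtrl and -0.12 in the difference) and for Irs1 in the difference (0.072). When a library was left out, ANG8 minus Ad_GFP ranged from -0.10 to 0.11 for Pik3r1. In shANG8 minus shCtrl it ranged from -0.17 to 0.36 for Akt1, -0.16 to 0.85 for Foxo1, -0.039 to 0.38 for Foxo3 and -0.14 to 0.027 for Pik3r1. The difference of effects ranged from -1.04 to 0.025 for Irs1, -0.14 to 0.40 for Akt1, -0.99 to 0.011 for Foxo1 and -0.07 to 0.15 for Pik3r1. In shCtrl minus Ad_GFP the range was -0.059 to 0.18 for Insr, -0.42 to 0.44 for Irs1, -0.45 to 0.55 for Foxo1 and -0.36 to 0.038 for Foxo3. Depth limits Irs1 most, with 7 to 38 counts a library. The fit of only the groups compared was not run for the difference, which needs all 4 groups.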

Other observations

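In shCtrl, replicate 3 stood apart from the other two libraries in several genes of the pathway at once. It had 3931 CPM of Pck1, where the other two had 1560.0 and 2000.0 CPM, and 13.7 CPM of Ppargc1a, where they had 6.04 and 6.15 CPM. Foxo1 and Foxo3 were likewise highest there. G6pc was lower, at 162 CPM, where the other two had 313 and 331 CPM, as was Angptl8. In shANG8, replicate 3 had the lowest level of Irs2 (7.87 CPM), Akt1 (35.3 CPM), Akt2 (89.0 CPM) and Igfbp1, at 7.24 CPM where the other two had 16.7 and 25.9 CPM. In the ANG8 group, replicate 3 had the highest Irs1 level (2.31 CPM) and the lowest Insr, Akt2 and Foxo3 levels.

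The gene symbol column of the deposited table holds at least 1 symbol turned into a date, 6-Mar, so a search of the table by symbol can miss such a gene. All 8 genes described here were found under their own symbols.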
